A study of Mus musculus with 9 samples.

Results

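The NF-kB subunits and inhibitors are 10 genes, found by symbol in a table of 31167 genes. Each of the 10 symbols had a single row, and all 10 genes passed the filter on low values. The subunits are Rela, Rel, Relb, Nfkb1 and Nfkb2, and the inhibitors are Nfkbia, Nfkbib, Nfkbie, Nfkbiz and Tnfaip3. RNA was measured by RNA-Seq in primary renal tubular epithelial cells from the kidney of C57BL/6 mice. The Sham group served as the negative control, with no treatment that the labels name. The H/R (hypoxia/reoxygenation) group was kept in glucose-free medium at 1.0% oxygen for 6 h and then returned to complete medium and normal oxygen for 18 h, which mimics ischemia and reperfusion in culture. The EGR1OV group was transfected with an Egr1 overexpression plasmid, which by the study's methods carries Egr1 under a cytomegalovirus promoter. Each group has 3 libraries, and the sources do not say whether these came from separate animals or cultures, so p-values measure only the spread between the libraries. No empty-vector group is among them, so effects of Egr1 and of transfected DNA cannot be told apart. The sources used here give no animal age and no time from transfection to collection for these libraries.

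NF-kB is a family of dimeric transcription factors that drives inflammatory and survival genes, also in injured kidney tubules. In resting cells the dimers are held in the cytoplasm by inhibitor proteins of the IkB type. Signals from cytokine and pattern-recognition receptors activate a kinase complex that marks the inhibitors for degradation, and the released dimers enter the nucleus. Several inhibitors are themselves NF-kB target genes and so form a feedback loop. In the canonical branch Rela and Rel pair with the product of Nfkb1, and in the noncanonical branch Relb pairs with the product of Nfkb2. Most of this control acts on proteins, which were not measured here.

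The promoters are shown to describe the sequence before the starts. Neither binding by NF-kB nor feedback on its own genes was tested. RefSeq promoter windows (GRCm38.p6, from 250 bases before to 50 after a start site) were found for 7 of the 10 members, in 10 windows. The kappa B consensus, the DNA motif bound by NF-kB, was searched on both strands. It was present in windows of 5 of these 7 genes, namely Nfkb2, Nfkbia, Nfkbie, Rel and Tnfaip3, against 5.14% of all 27025 genes with a window. The Rela and Nfkbib windows held no match. The Egr1 motif GCGTGGGCG was in none of the 7 genes, against 0.707% of all genes, and its relative GCGGGGGCG was in 1, Nfkb2, against 3.31%. Below are the 130 bases just before 1 start of each of the 5 genes with a consensus match. They run 5′ to 3′ on the strand of the gene, with consensus matches in capitals. Nfkb2 and Tnfaip3 have further windows that are not printed. Those of Nfkb2 hold more consensus matches and the GCGGGGGCG match.
Nfkbia (chr12:55492648-55492777, minus strand): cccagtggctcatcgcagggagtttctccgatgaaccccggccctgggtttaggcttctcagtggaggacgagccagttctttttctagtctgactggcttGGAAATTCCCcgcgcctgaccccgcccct
Nfkbie (chr17:45555570-45555699, plus strand): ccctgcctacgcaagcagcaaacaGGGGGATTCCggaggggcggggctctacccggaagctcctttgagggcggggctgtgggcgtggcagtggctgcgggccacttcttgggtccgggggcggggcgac
Tnfaip3 (chr10:19015411-19015540, minus strand): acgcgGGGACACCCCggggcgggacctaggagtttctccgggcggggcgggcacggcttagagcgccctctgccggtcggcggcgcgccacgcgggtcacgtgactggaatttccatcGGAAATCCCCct
Nfkb2 (chr19:46304607-46304736, plus strand): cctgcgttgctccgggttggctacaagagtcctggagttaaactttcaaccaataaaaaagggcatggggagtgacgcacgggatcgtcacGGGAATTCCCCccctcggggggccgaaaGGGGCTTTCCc
Rel (chr11:23770970-23771099, minus strand): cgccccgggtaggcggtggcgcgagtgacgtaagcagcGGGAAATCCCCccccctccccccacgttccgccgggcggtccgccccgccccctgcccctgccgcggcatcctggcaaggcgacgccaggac
Counting the base just before the start as -1, the Nfkbia match runs from -29 to -20 and the Nfkbie match from -106 to -97. Tnfaip3 has matches from -125 to -116 and from -12 to -3. In Nfkb2 the capitals hold overlapping matches from -39 to -30 and from -38 to -29, and a further match from -11 to -2. In Rel they hold overlapping matches from -92 to -83 and from -91 to -82. A match is a description of the letters and not a measured binding site. By the calling rule given below, Nfkb2, Nfkbia, Nfkbie and Tnfaip3 rose in EGR1OV against Sham, and Rel was not called. Rela and Nfkbib, which have no match, also rose.

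The overexpressed gene, Egr1, was read first to check the labels. Its level was 42.6 ± 2.84 FPKM in EGR1OV, against 6.40 ± 0.443 in Sham and 7.88 ± 0.599 after H/R (SD, n = 3 each). FPKM counts sequenced fragments scaled to gene length and to library depth, which lets levels of different genes be compared. Depth was even, from 16183617 to 18384022 recovered reads per library. A signal from the gene Gm23935 set 4 libraries apart, at 9378 to 21700 FPKM against 1494 to 4188 in the other 5. These were Sham replicate 3, H/R replicates 2 and 3 and EGR1OV replicate 3. With this signal as a covariate, added after seeing the data, the calling rules given below picked 9 of the 10 genes in EGR1OV and 4 after H/R, each against Sham, and 6 between EGR1OV and H/R, the counts found without it. With those 4 libraries left out, the count stayed at 9 for EGR1OV against Sham and was 0 for H/R against Sham, where a single H/R library then remained and limma called 7 genes of the whole table. In that fit Nfkb2, Nfkbie, Relb and Nfkbia differed from Sham after H/R by 0.371, 0.332, 0.236 and 0.197 in log2(FPKM + 1). These are the 4 genes called with all libraries, where they differed by 0.334, 0.387, 0.299 and 0.290.

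Among the labelled cell type's markers, Krt8, Krt18, Cdh1, Epcam and Pax8 were expressed, at 13.1 FPKM (Pax8) to 1014 FPKM (Krt8) in Sham. By the calling rules given below, 4 of 9 tested tubule markers fell in EGR1OV and 1, Epcam, rose. Over all genes tested 9.87% rose and 6.51% fell in EGR1OV. The sum of the 11 matched markers was 1272 to 1383 FPKM in EGR1OV against 1962 to 1999 in Sham. The markers that fell were Krt8 (1014 to 618 FPKM), Krt18 (685 to 412), Lrp2 (3.60 to 1.22) and Aqp1 (1.3 to 0.368). Krt8 and Krt18 made up most of the sum. Among tested markers not called, Cdh16 (24.3 to 19.6 FPKM) and Krt7 (80.8 to 62.1) had lower means in EGR1OV. Cdh1 (86.2 to 102 FPKM) and Pax8 (13.1 to 13.5) had higher means. After H/R the sum was 1813 to 1897 FPKM, with 0 of 9 markers called lower and 1 higher by limma. Over all genes tested 1.6% rose and 2.65% fell after H/R. Defining markers of mature segments were low or absent, with Slc34a1, the phosphate transporter of the proximal tubule, at 0.00434 FPKM in Sham and Umod of the thick ascending limb at 0 in all 9 libraries. Macrophages also use NF-kB, so their markers were followed. Summed over 13 macrophage markers, the level ran from 160 to 167 FPKM in Sham, from 137 to 146 after H/R and from 45.2 to 53.2 in EGR1OV, and 10 of 11 tested markers fell in EGR1OV. Cd14, the exception, is also induced in epithelium and rose from 5.46 ± 0.607 to 18.0 ± 1.87 FPKM (SD, n = 3). Markers of lymphocytes summed to at most 0.134 FPKM in any library. In bulk RNA, fewer cells of a type and less RNA per cell cannot be told apart. The part that these shifts in tubule, macrophage, stromal and endothelial markers play in the NF-kB levels was not tested.

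In Sham cells the 10 genes spanned a wide range of levels. Rela, the main transactivating subunit, was the highest at 37.8 ± 1.92 FPKM, and its values overlapped those of Nfkbia at 35.1 ± 1.74. Nfkbia also overlapped Tnfaip3 at 33.6 ± 0.506, and Nfkb2 followed at 31.8 ± 0.290 without overlap. Well below came Nfkbiz at 14.3 ± 0.645, then Nfkbib at 11.8 ± 0.644 and Nfkb1 at 11.6 ± 0.204, the last pair overlapping. Nfkbie was at 7.08 ± 0.310, Relb at 6.04 ± 0.201 and Rel, the subunit typical of lymphocytes, at 1.71 ± 0.245 FPKM (SD, n = 3 each). No neighbours below Nfkb1 overlapped. The order changed in both treated groups. After H/R Nfkbia was the highest at 43.1 ± 2.14 FPKM, narrowly without overlap above Rela at 40.7 ± 0.507, and Nfkb2 lay above Tnfaip3. In EGR1OV Nfkbia was the highest at 79.1 ± 2.64 FPKM and Tnfaip3 the next at 62.5 ± 0.863, both without overlap above Rela.

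**Figure D1:**
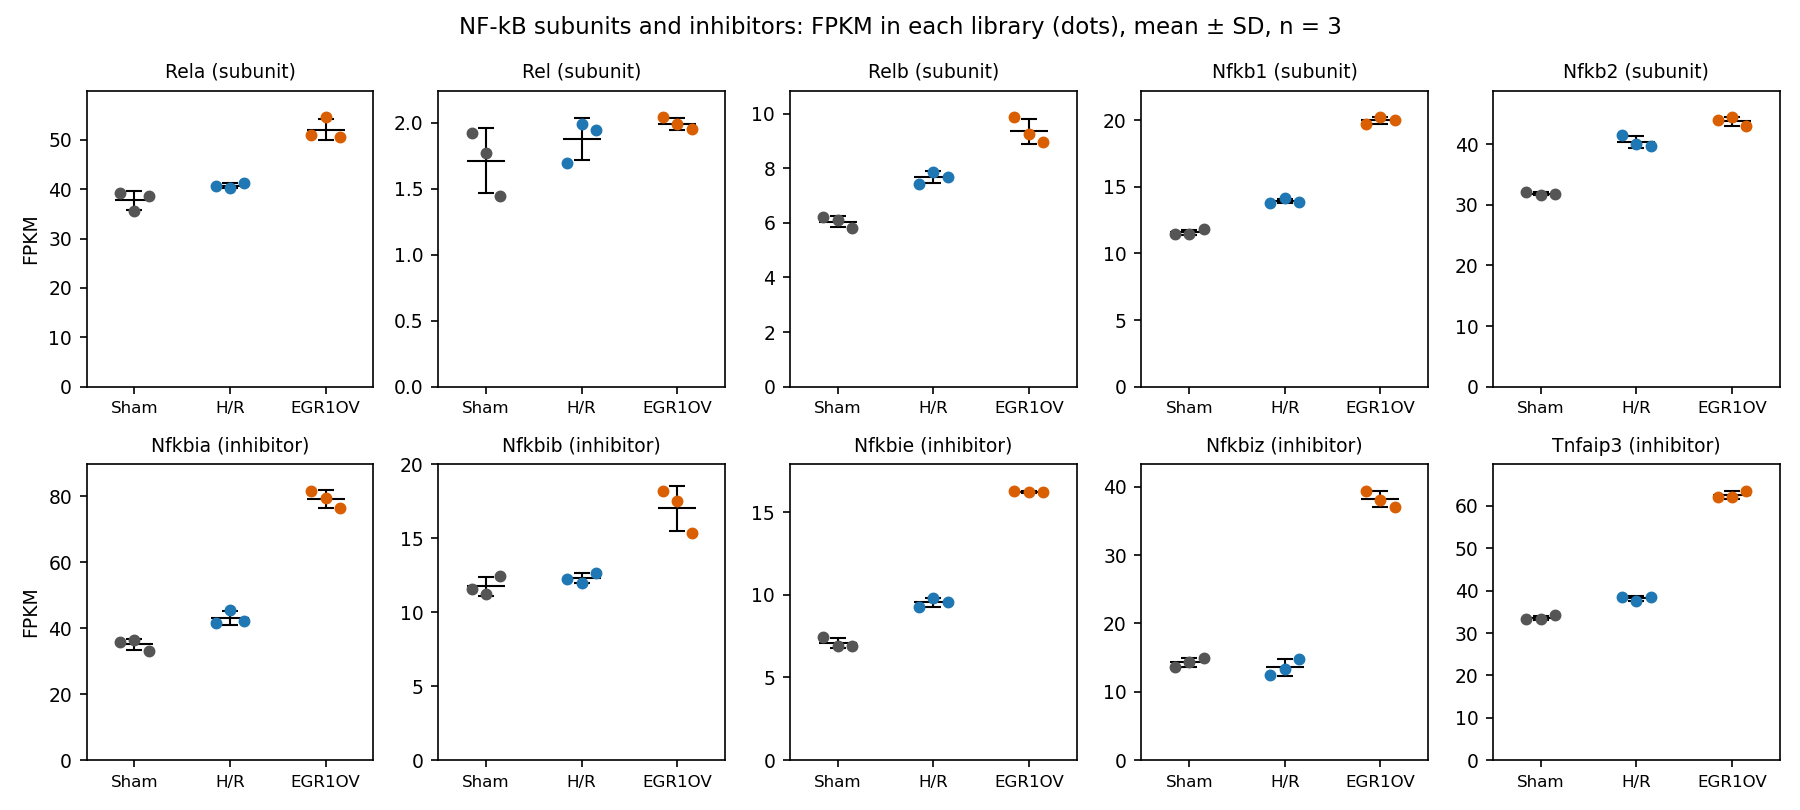
FPKM (vertical axes, each starting at 0) of the 5 subunits (upper row) and the 5 inhibitors (lower row) in the 9 libraries, with dots for libraries and bars for mean ± SD (n = 3). The 3 EGR1OV values lie above the 3 Sham values in every panel, while H/R values overlap Sham for Rel, Nfkbib and Nfkbiz.

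The comparison of EGR1OV with Sham asked how the family responds to the Egr1 plasmid. All 5 inhibitors and 4 of the 5 subunits rose, and no member fell. Calls required 1.3-fold or more with a limma adjusted p under 0.05, and by this rule 9.87% of the 13985 tested genes rose and 6.51% fell. Limma voom on recovered reads also called 9 genes higher and 0 lower, and no gene of the 10 was lower at an unadjusted p under 0.05. Over the 13972 genes of the limma voom fit, 1732 were called higher and 1280 lower. By adjusted p alone 9 of the 10 passed, as did 45.9% of all genes tested. Quantile normalization changed the split of all calls from 1381 higher and 910 lower to 1059 and 1247. The median difference of the 10 genes was 0.65 on the log2(FPKM + 1) scale, against 0.02 over all genes tested. The inhibitors had a median of 1.09 and the subunits of 0.45. Differences on this scale understate the change of genes with low FPKM. In all 10 genes the 3 EGR1OV values lay above the 3 Sham values, as in 31% of all genes tested. For each such gene the exact two-sided permutation p was 0.1, which is the lowest that 3 against 3 can reach.

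Among the inhibitors, Nfkbiz, which encodes the nuclear protein IkB-zeta that can also act as a coactivator, changed most. The Sham libraries held 13.6, 14.4 and 14.9 FPKM of it, and the EGR1OV libraries 39.4, 38.0 and 37.0. The EGR1OV values were close together and far above Sham, with a log2 difference of 1.36 (SE 0.0586, limma adjusted p 1.01e-07). Nfkbia encodes IkB-alpha, the classic feedback inhibitor. Its level was 35.8, 36.3 and 33.1 FPKM in Sham and 81.6, 79.5 and 76.3 in EGR1OV. The ratio of the means was 2.26 and the log2 difference 1.15 (SE 0.0465, limma adjusted p 6.05e-08). Nfkbie, which encodes IkB-epsilon, another feedback inhibitor, was at 7.43, 6.91 and 6.88 FPKM in Sham and 16.3, 16.2 and 16.2 in EGR1OV. Its ratio of means of 2.29 was close to that of Nfkbia, and its log2 difference was 1.09 (SE 0.0371, limma adjusted p 1.69e-08).

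Tnfaip3 encodes A20, a ubiquitin-editing enzyme that shuts off signaling above the kinase complex. It was at 33.3, 33.3 and 34.2 FPKM in Sham and at 62.1, 62.0 and 63.5 in EGR1OV. It had the narrowest error of the 10 genes, with a log2 difference of 0.88 (SE 0.0245, limma adjusted p 3.9e-09), and rested on at least 3952 reads per library. Nfkbib encodes IkB-beta, an inhibitor less tied to feedback. It went from 11.6, 11.2 and 12.5 FPKM in Sham to 18.2, 17.5 and 15.3 in EGR1OV. This was the smallest rise among the inhibitors, with a log2 difference of 0.50 (SE 0.0616, limma adjusted p 0.000155).

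Among the subunits, Nfkb1, which encodes the precursor p105 of the p50 protein, rose most. Its level was 11.5, 11.5 and 11.8 FPKM in Sham and 19.7, 20.2 and 20.0 in EGR1OV, and the log2 difference was 0.74 (SE 0.0277, limma adjusted p 3.62e-08). Relb was at 6.20, 6.11 and 5.82 FPKM in Sham and at 9.86, 9.26 and 8.95 in EGR1OV. Its log2 difference was 0.56 (SE 0.0438, limma adjusted p 7.21e-06). Rela and Nfkb2, the subunits with the highest levels in Sham, rose by the same ratio of means, 1.38. Rela was at 39.1, 35.6 and 38.6 FPKM in Sham and at 51.0, 54.5 and 50.6 in EGR1OV (log2 difference 0.45, SE 0.0414, limma adjusted p 2.04e-05). Nfkb2, which encodes the precursor p100 of the p52 protein, was at 32.2, 31.6 and 31.8 FPKM in Sham and at 44.0, 44.4 and 43.0 in EGR1OV (log2 difference 0.45, SE 0.0263, limma adjusted p 9.12e-07). The Nfkb2 difference became 0.37 with quantile normalization, which lies below the 1.3-fold threshold.

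Rel was the subunit that did not pass the test. It was at 1.92, 1.77 and 1.44 FPKM in Sham and at 2.04, 1.99 and 1.95 in EGR1OV, with no overlap but a narrow gap. The log2 difference was 0.15, with a 95% confidence interval from -0.03 to 0.32 (limma adjusted p 0.152). Rel rested on 178 to 273 reads per library, the fewest of the 10 genes, and a change within that interval could not be resolved.

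Setting H/R beside Sham asked how the family responds to hypoxia and reoxygenation. Nfkb2, Relb, Nfkbia and Nfkbie rose, the other 6 members were not called, and no member fell. The threshold here was a limma adjusted p under 0.05 and at least 1.2-fold, by which 1.6% of tested genes rose and 2.65% fell. Median-ratio scaling changed the split of all calls from 224 higher and 370 lower to 314 and 228. Limma voom on recovered reads called 5 of the 10 genes higher and 0 lower, and none was lower at an unadjusted p under 0.05. Over the 13972 genes of the limma voom fit, 333 were called higher and 668 lower. The median difference of the 10 genes was 0.21 on the log2(FPKM + 1) scale, against -0.03 over all genes tested. Nfkb1 and Tnfaip3 had an adjusted p under 0.05 but less than 1.2-fold change on this scale. With them, 6 of the 10 genes had an adjusted p under 0.05, a level that 11.7% of genes tested reached. The H/R values lay above the Sham values without overlap in 7 genes (these 6 and Rela), as in 11.8% of all genes tested.

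Nfkbie rose most after H/R, to 9.29, 9.84 and 9.54 FPKM from 6.88 to 7.43 in Sham. The log2 difference was 0.39 (SE 0.0371, limma adjusted p 0.000565). Nfkb2 was at 41.5, 40.0 and 39.7 FPKM after H/R, against at most 32.2 in Sham. Its log2 difference was 0.33 (SE 0.0263, limma adjusted p 0.000227). Relb, the partner of the Nfkb2 product, was at 7.43, 7.87 and 7.69 FPKM after H/R, with a log2 difference of 0.30 (SE 0.0438, limma adjusted p 0.00429). Nfkbia was at 41.5, 45.5 and 42.2 FPKM after H/R, with a log2 difference of 0.29 (SE 0.0465, limma adjusted p 0.00619). The call of Nfkbia depended on single libraries. Its difference was 0.25 without Sham replicate 3 and 0.25 without H/R replicate 2, below the 1.2-fold threshold in both cases.

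Nfkb1 was at 13.8, 14.1 and 13.9 FPKM after H/R, and its log2 difference of 0.25 (SE 0.0277, limma adjusted p 0.00135) lay just under the fold threshold. It passed with a pseudocount of 0.1 (0.26), with median-ratio scaling (0.28) and with quantile normalization (0.27). Tnfaip3 was at 38.5, 37.5 and 38.6 FPKM after H/R, a log2 difference of 0.18 (SE 0.0245, limma adjusted p 0.00281). Rela was at 40.7, 40.2 and 41.2 FPKM, with a log2 difference of 0.11 (95% confidence interval 0.01 to 0.20, limma adjusted p 0.13). The intervals of the remaining genes included 0. They ran from -0.09 to 0.26 for Rel, from -0.08 to 0.20 for Nfkbib and from -0.21 to 0.06 for Nfkbiz. Nfkbiz was at 12.5, 13.3 and 14.9 FPKM after H/R, values that overlapped those of Sham.

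**Figure D2:**
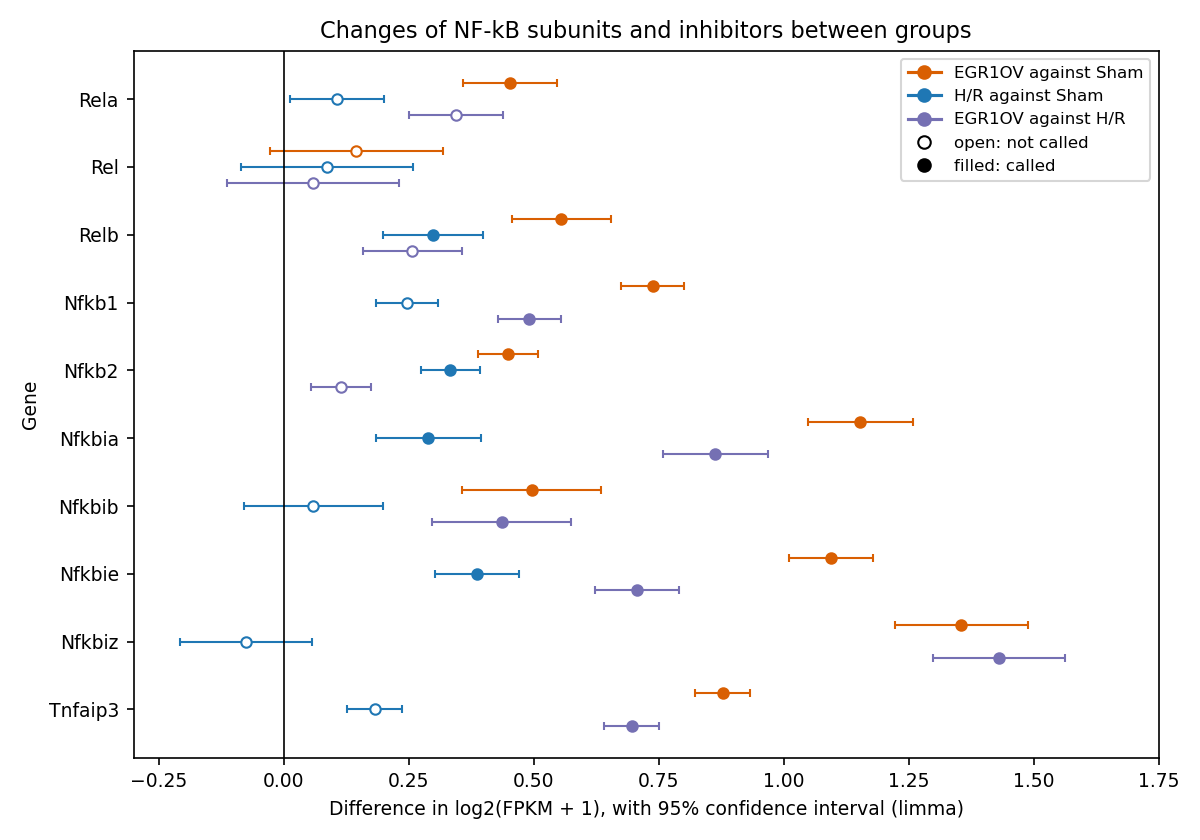
Differences in log2(FPKM + 1) between groups (horizontal axis) for each of the 10 genes, with 95% confidence intervals from limma and filled points for called genes. For EGR1OV against Sham the points run from 0.15 (Rel) to 1.36 (Nfkbiz), and for H/R against Sham from -0.07 (Nfkbiz) to 0.39 (Nfkbie).

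Both comparisons share the Sham libraries, so the treated groups were also set against each other. All 5 inhibitors were higher in EGR1OV, and Nfkb1 was the only subunit called. By this rule (limma adjusted p under 0.05 and at least 1.3-fold) 11.9% of tested genes were higher and 6.94% lower. Limma voom on recovered reads called 6 higher and 0 lower as well, and none was lower at an unadjusted p under 0.05. Over the 13972 genes of the limma voom fit, 2242 were called higher and 1298 lower. Quantile normalization changed the split of all calls from 1670 higher and 971 lower to 1112 and 1506. Values did not overlap in 9 genes, Rel being the exception, and EGR1OV lay above H/R in the same way in 36.6% of all genes tested. The log2 differences of the inhibitors were 1.43 for Nfkbiz (SE 0.0586), 0.86 for Nfkbia (SE 0.0465), 0.71 for Nfkbie (SE 0.0371), 0.70 for Tnfaip3 (SE 0.0245) and 0.44 for Nfkbib (SE 0.0616). The difference of Nfkb1 was 0.49 (SE 0.0277), with limma adjusted p values up to 0.000305 among the 6 genes. Nfkbib was under the 1.3-fold threshold after median-ratio scaling (0.38) and, like Nfkb1 (0.37), after quantile normalization (0.31). Rela, Relb and Nfkb2 had an adjusted p under 0.05 with differences of 0.35, 0.26 and 0.12, which were under the fold threshold. Of the 10 genes 9 had an adjusted p under 0.05, as did 51% of all genes tested. Rel had a difference of 0.06, with an interval from -0.11 to 0.23.

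The balance of inhibitors and subunits was set out library by library, as the summed FPKM of the 5 inhibitors divided by that of the 5 subunits. Sham libraries had ratios of 1.12, 1.18 and 1.13, H/R libraries of 1.08, 1.13 and 1.13, and EGR1OV libraries of 1.72, 1.64 and 1.67. EGR1OV lay above both other groups without overlap (exact two-sided permutation p = 0.1 in each case, the lowest possible), and H/R overlapped Sham (exact permutation p = 0.5). The summed subunits had a mean of 89.0 ± 2.22 FPKM in Sham libraries, 104.6 ± 0.466 in those after H/R and 127 ± 2.97 in those with EGR1OV. The summed inhibitors were 101.8 ± 0.336, 117 ± 2.35 and 213 ± 4.52 FPKM in the same order (SD, n = 3 each). After H/R both sums were higher by a similar amount, 15.6 FPKM for subunits and 14.9 for inhibitors. In EGR1OV the subunits were higher than in Sham by 38.2 FPKM and the inhibitors by 111 FPKM. With Nfkbia, Nfkbib and Nfkbie alone over the subunits, the ratio was still higher in EGR1OV than in Sham, by 0.278 against 0.531 with all 5 inhibitors. These sums describe RNA and give no measure of the proteins.

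Single pairs of genes showed where the balance moved. Nfkbia per Rela averaged 0.931 ± 0.0824 in Sham, 1.06 ± 0.0632 after H/R and 1.52 ± 0.0714 with EGR1OV (SD, n = 3 each). EGR1OV lay clear of both other groups. Sham and H/R were barely apart, at 1.0192 in Sham replicate 2 and 1.0193 in H/R replicate 1. Nfkb2 per Nfkb1, the ratio of the precursor genes, had Sham values of 2.81, 2.75 and 2.69, H/R values of 3.01, 2.83 and 2.86, and EGR1OV values of 2.23, 2.199 and 2.15. It was thus higher than Sham after H/R and lower than Sham in EGR1OV, without overlap in either case (exact permutation p = 0.1 each). Relb per Rela averaged 0.160 ± 0.0107 in Sham, 0.188 ± 0.00670 after H/R and 0.180 ± 0.0120 with EGR1OV (SD, n = 3 each). Only the H/R values were clear of Sham in that pair.

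The noncanonical subunits Relb and Nfkb2 together made up 42.2%, 43.6% and 42.0% of the summed subunits in Sham. Their share was 46.6%, 45.9% and 45.4% after H/R, above all Sham values, with a mean difference of 3.35 percentage points (exact permutation p = 0.1). In EGR1OV it was 42.6%, 41.2% and 41.7%, which overlapped Sham (exact permutation p = 0.4) and lay below H/R. The 2 genes moved in opposite ways there. The mean share of Relb was 7.36% against 6.80% in Sham, and that of Nfkb2 34.5% against 35.8%. Neither overlapped Sham, though for Relb the gap was narrow. The share of Rela was 42.4 ± 1.15% in Sham and 38.9 ± 0.477% after H/R, without overlap. Nfkb1 took 13.03 ± 0.357% in Sham, 13.3 ± 0.221% after H/R and 15.7 ± 0.323% with EGR1OV (SD, n = 3 each), and EGR1OV lay above both other groups. Relb as a share of Rela, Rel and Relb alone was higher than Sham by 1.96 percentage points in H/R and by 1.48 in EGR1OV.

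Within the inhibitors, Nfkbiz took 14.1 ± 0.646% of the summed FPKM in Sham, 11.6 ± 0.878% after H/R and 17.9 ± 0.180% in EGR1OV. The share of Nfkbib was 11.6 ± 0.668%, 10.5 ± 0.328% and 7.99 ± 0.547% in the same order (SD, n = 3 each). Both were without overlap between the 3 groups. Nfkbia took 34.4 ± 1.61% in Sham, 36.9 ± 1.41% after H/R and 37.1 ± 0.463% in EGR1OV, and the treated groups overlapped each other.

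**Figure D3:**
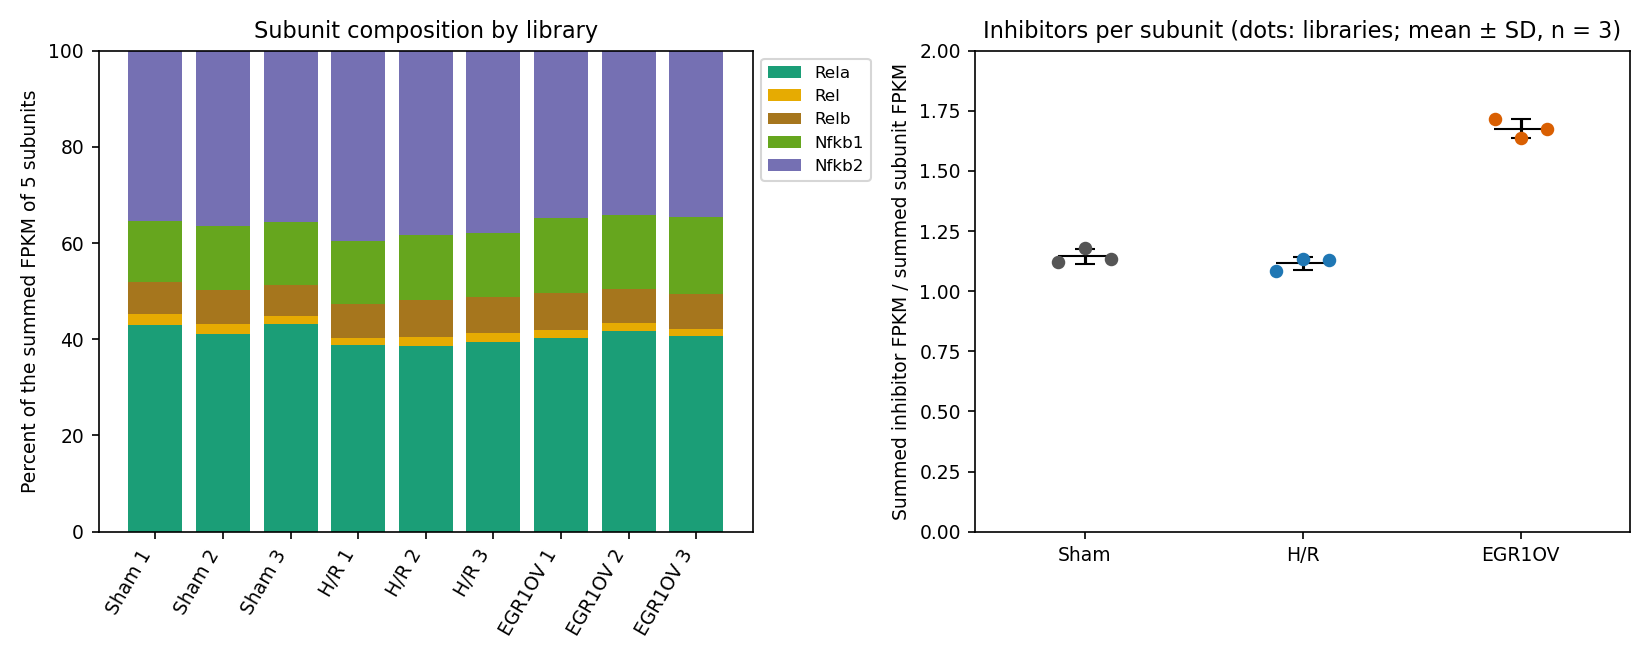
Left, percent of the summed FPKM of the 5 subunits that each subunit takes in each library. Right, summed inhibitor FPKM per summed subunit FPKM by group, with dots for libraries and bars for mean ± SD (n = 3), where EGR1OV lies at 1.64 to 1.72 and the other libraries at 1.08 to 1.18.

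The genes around the family were read from 3 lists with 95 genes, of which 90 were tested. The lists hold 41 upstream receptors, adaptors and kinases, 18 further regulators and 36 target genes. They were chosen with earlier results of these data known. In EGR1OV against Sham 50 of the 90 rose and 3 fell, with a median difference of 0.41. Of all genes tested 9.87% rose and 6.51% fell by the same rule, with a median of 0.02. Among the targets, 27 of 34 tested rose and 1 fell, with a median of 1.73, and the largest rises were in the chemokine genes Ccl5 (7.65), Cxcl10 (5.23) and Ccl2 (4.71). Ccl5 and Cxcl10 are also known to respond to interferon. The filter on low values takes the mean over all 9 libraries, and some targets passed it only through EGR1OV. Examples, named with their values known, are Cxcl2 (0.144 FPKM in Sham, 0.264 after H/R, 7.16 in EGR1OV) and Ccl20 (0.238, 0.282 and 6.72). Their rise follows from the filter, so the counts and medians that include them are no independent support for a rise. Upstream, 15 of 39 tested rose and 1 fell, with a median of 0.24. Led by Tlr3, a sensor of double-stranded RNA, the list also had rises in Tlr2 and the TNF receptor gene Tnfrsf1b. Tlr3 rose from 4.72 ± 0.246 to 27.2 ± 1.22 FPKM, Tlr2 from 12.7 ± 0.355 to 37.4 ± 0.637 and Tnfrsf1b from 6.95 ± 0.514 to 19.1 ± 0.305 (SD, n = 3 each). Card10, a scaffold that links receptors to the kinase complex, fell by 0.56 on the log2 scale. Among Ccl5, Cxcl10, Ccl2, Tlr3, Tlr2, Tnfrsf1b and Card10 the highest limma adjusted p was 5.27e-06, that of Card10.

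Of 17 further regulators tested, 8 rose and 1 fell in EGR1OV, with a median of 0.21. Over all genes tested 9.87% rose and 6.51% fell. Among genes at a mean of 5 FPKM or more in the higher group, the largest rises were in Nlrc5 (3.47), which is best known as a transactivator of MHC class I genes, in Zc3h12a (2.35), an RNase that degrades inflammatory transcripts, and in N4bp1 (0.87). The gene that fell was Pdlim2 (-0.41), named after its value was seen. The list holds 2 more genes of the IkB type that bind NF-kB directly, Bcl3 and Nfkbid. Nfkbil1, an IkB-like gene of the list that was named with its value known, was not called in EGR1OV (0.19, limma adjusted p 0.187). Bcl3, which binds p50 and p52 dimers in the nucleus, was at 1.40, 1.78 and 2.03 FPKM in Sham and 5.04, 5.36 and 4.42 in EGR1OV. Its log2 difference was 1.12 (SE 0.124, limma adjusted p 7.44e-05). Nfkbid rose from 0.855 ± 0.0421 to 1.64 ± 0.269 FPKM (SD, n = 3), with a log2 difference of 0.51 (SE 0.103, limma adjusted p 0.00316). After H/R the differences of Bcl3 and Nfkbid were 0.04 (interval -0.24 to 0.32) and 0.03 (interval -0.20 to 0.26).

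The kinase complex that acts on the inhibitors is encoded by Chuk, Ikbkb and Ikbkg, which were chosen for naming after their values were seen. Chuk was at 17.4 ± 0.553 FPKM in Sham and 16.9 ± 0.277 in EGR1OV, Ikbkb at 5.01 ± 0.255 and 6.09 ± 0.0265, and Ikbkg at 11.4 ± 0.0541 and 13.5 ± 0.731 (SD, n = 3 each). None of the 3 was called against Sham. Ikbkb and Ikbkg had an adjusted p under 0.05 in EGR1OV (limma, 0.00155 and 0.00163) with differences of 0.24 and 0.23, under the fold threshold. Ikbkg was at 10.2 ± 0.319 FPKM after H/R (SD, n = 3), with a difference of -0.15 from Sham (limma adjusted p 0.0434, under the fold threshold). Between EGR1OV and H/R it was called, at 0.38 (limma adjusted p 5.55e-05).

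After H/R 10 of the 90 pathway genes rose and 0 fell, with a median of 0.03. Of all genes tested 1.6% rose and 2.65% fell by the same rule, with a median of -0.03. At an unadjusted limma p under 0.05, 25 pathway genes were higher and 8 lower, and limma voom called 10 higher and 1 lower. The share of all genes at that unadjusted p was not counted, so counts at it are no result about the lists. Over the 13972 genes of the limma voom fit, 333 were called higher and 668 lower. Of 39 upstream genes tested 2 rose, the receptor gene Cd40 and Map3k14, which encodes the NIK kinase of the noncanonical branch. Cd40 rose from 10.1 ± 0.619 to 12.9 ± 0.465 FPKM (limma adjusted p 0.00358). Map3k14 rose from 9.35 ± 0.402 to 11.7 ± 0.385 FPKM (limma adjusted p 0.00402) and was at 8.97 ± 0.327 in EGR1OV (SD, n = 3 each). Its difference between EGR1OV and H/R was -0.35 (limma adjusted p 0.000123), which is under the fold threshold. Among the targets 8 of 34 rose, with a median of 0.14. Among those at a mean of 5 FPKM or more in the higher group the largest rises were in Ccl2 (0.60), Cxcl10 (0.51) and Il23a (0.51). A larger rise than in the last pair, 0.54, was that of the adhesion molecule gene Vcam1, which lay below that level and was picked for naming with its value known. Il23a encodes a subunit of the cytokine IL-23. Sham libraries had 7.33, 6.99 and 6.09 FPKM, H/R libraries 9.16, 11.1 and 10.04, and EGR1OV libraries 4.85, 4.03 and 3.83, so that the 3 groups did not overlap. Its fall in EGR1OV was 0.58 on the log2 scale (limma adjusted p 0.00076). Of the 17 further regulators 0 were called after H/R by limma or limma voom, and 2 were higher and 0 lower at an unadjusted limma p under 0.05.

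In EGR1OV against H/R 48 of the 90 pathway genes were higher and 3 lower. Over all genes tested 11.9% were higher and 6.94% lower. Here too, some pathway genes passed the filter on low values only through EGR1OV, so the count of higher genes is in part set by the filter. The upstream genes with the largest differences were Tlr3 (2.27), Tlr2 (1.48) and Ikbke (1.28), which encodes a kinase related to the complex. The targets with the largest differences were Ccl5 (7.39), Cxcl10 (4.72) and the chemokine gene Cxcl1 (4.12). The genes that were lower were Il23a (-1.08), the cyclin gene Ccnd1 (-0.48) and Card10 (-0.38), with a limma adjusted p of at most 6.62e-05.

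**Figure D4:**
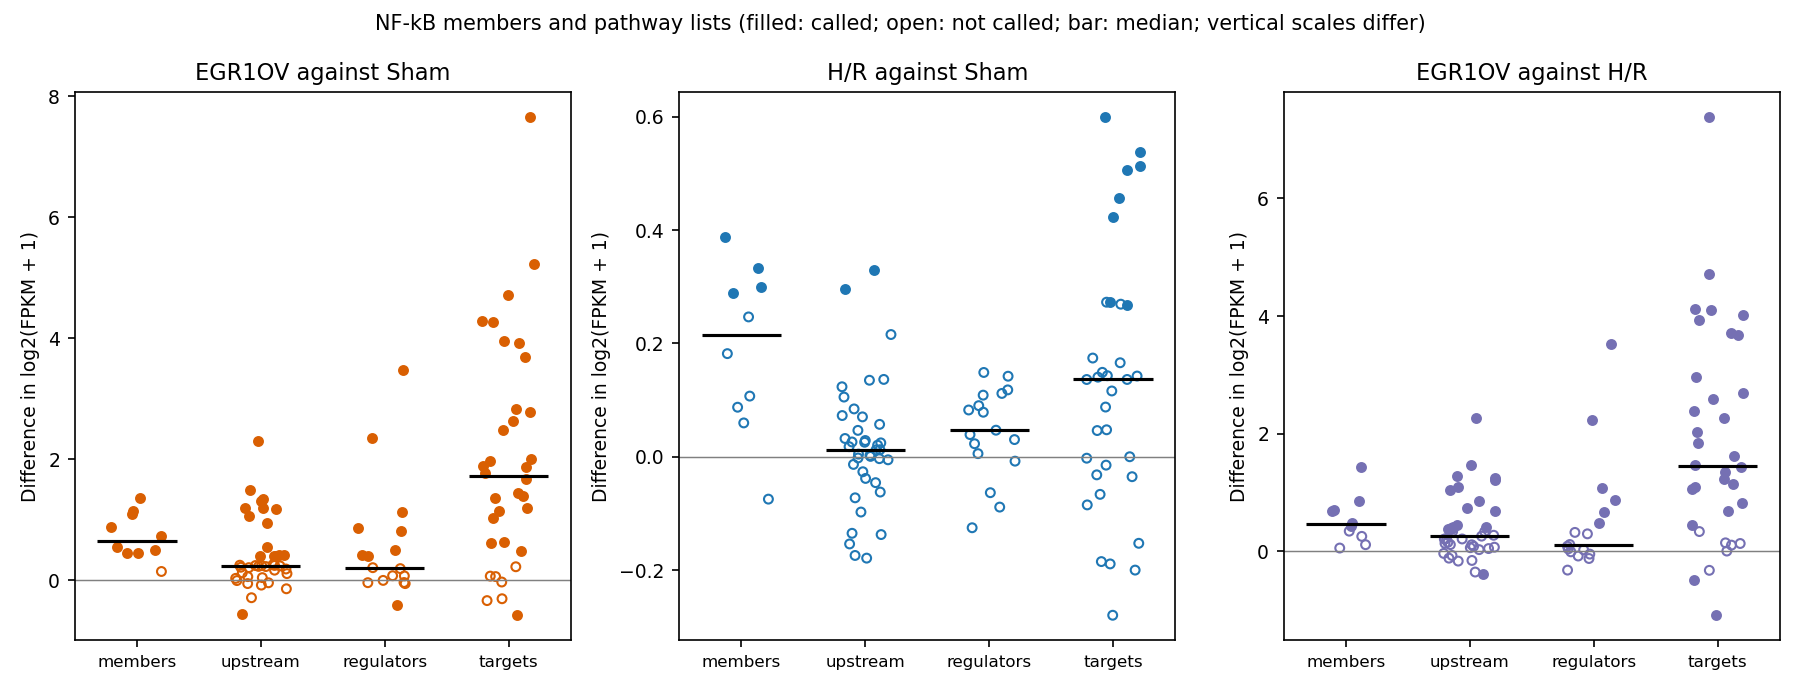
Differences in log2(FPKM + 1) for the 10 NF-kB genes and the tested genes of the upstream, regulator and target lists in each comparison, with filled points for called genes, bars for medians and a separate vertical scale in each panel. Target genes reach 7.65 in EGR1OV against Sham and 0.60 in H/R against Sham.

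The genes whose values over the 9 libraries were most like those of Nfkbia and Relb were found by Euclidean distance between log2(FPKM + 1) values centred on the Sham mean. Nearest to Nfkbia were Rab19 (distance 0.194), Atp10a (0.208) and Rnf19b (0.225). Rnf19b had a similar level too, with 44.9 ± 1.36 FPKM in Sham, 55.6 ± 0.650 after H/R and 94.2 ± 3.48 with EGR1OV (SD, n = 3 each). Rab19 was at 0.994, 1.38 and 3.56 FPKM and Atp10a at 3.07, 4.15 and 8.56 in the same order. Adding 1 before the log shrinks changes at such low levels, and the ratios of EGR1OV to Sham were larger for both than for Nfkbia. Nearest to Relb were Alcam (0.173), Chst11 (0.200) and Stx11 (0.210). Chst11 was at 6.04 ± 0.386, 7.53 ± 0.340 and 9.57 ± 0.491 FPKM in the same order (SD, n = 3 each).

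In the table the 10 genes are protein-coding and lie apart from each other on 8 chromosomes, in coordinates of GRCm38. Rela and Nfkb2 are on chromosome 19 (5637483-5648130 and 46304737-46312090), and Relb and Nfkbib on chromosome 7 (19606217-19629438 and 28758251-28767512). Rel is on chromosome 11 (23736847-23770970), Nfkb1 on chromosome 3 (135584655-135691547), Nfkbia on chromosome 12 (55489410-55492647), Nfkbie on chromosome 17 (45555716-45563169), Nfkbiz on chromosome 16 (55811375-55838899) and Tnfaip3 on chromosome 10 (19000910-19015657). Values are per gene, so transcripts of 1 gene, such as those that differ in their start, are not separated.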

How the data were processed

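The deposited values are the FPKM that the authors computed per gene, with a column per library and replicates not pooled. The submitters' processing notes name Bowtie2 2.2.3, HISAT2 2.1.0 and TopHat2 and the build mm9, without roles. The counter is not given in the sources used here. Yet 94.6% of gene positions equal GENCODE M21 (GRCm38), and coordinates are given as in the table. With M21 exon lengths, FPKM steps gave reads per library, and 94.0% of 162962 values of 1 to 1000 reads were whole within 0.02. Reads of Rela, Nfkb2 and Nfkbie, which were not whole, are approximate.

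log2(FPKM + 1) of 13985 genes whose mean over the libraries reached 0.5 FPKM entered a limma 3.58.1 fit (R 4.3.3, trend, 9 libraries, two-sided, Benjamini-Hochberg over all genes). The fit was also run on simulated libraries with a fixed ratio of variance to mean, which cannot show how errors are controlled in these libraries. The fold thresholds are 1.2 for H/R against Sham and 1.3 otherwise, the latter chosen here for EGR1OV against H/R. Summed levels were compared by exact permutation (scipy 1.17.1). Figures used matplotlib 3.10.9. Members and lists were chosen with earlier results of these data known. Named besides the members were Egr1, Bcl3 and Nfkbid, and per list and comparison the 3 largest rises and 2 largest falls among called genes with a mean of 5 FPKM or more in the higher group and no overlap. Alternatives changed the pseudocount, filter, scaling, fold threshold, groups in the fit, replicate block and libraries. Without molecular identifiers, reads may be copies of a molecule.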

Additional observations from a re-analysis of the deposited data

Results flagged for a closer look

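In 1 of the 10 NF-kB genes and in 18 of the 90 tested pathway genes the differences from Sham had opposite signs in EGR1OV and after H/R, and the difference between the treated groups was itself past the threshold by limma. The share of all genes tested that meet this rule was not counted, so these counts are no result about the sets. The rule also takes the sign of differences that were not past the threshold. The genes that met it and are named in the text are given here. Nfkbiz differed from Sham by 1.36 in EGR1OV and by -0.07 after H/R, which was not past the threshold (limma adjusted p 0.45), and the treated groups differed by 1.43 (limma adjusted p 6.69e-08). Il23a fell by 0.58 in EGR1OV and rose by 0.51 after H/R, and the treated groups differed by -1.08 (limma adjusted p 1.11e-05). Nlrc5 and N4bp1 rose in EGR1OV, with differences of -0.06 and -0.01 after H/R that were not past the threshold, and the treated groups differed by 3.53 and 0.88. Ccnd1 and Ikbkg were past the threshold only between the treated groups, by -0.48 and 0.38. The differences from Sham share the Sham libraries, which do not enter the difference between the treated groups.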

How the results depend on the processing

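Of 189 values of single NF-kB genes under alternatives, 188 kept their direction and side of the threshold in EGR1OV against Sham, 178 in H/R against Sham and 185 between EGR1OV and H/R. Direction turned only for Rel, which was not called, to -0.0785 (H/R against Sham without the 4 libraries of high Gm23935) and to -0.0287 (EGR1OV against H/R after quantile normalization). The number of NF-kB genes called was 9 in every fit without 1 library for EGR1OV against Sham, 3 to 4 in H/R against Sham and 6 between EGR1OV and H/R. With the replicate block it was 9, 4 and 6, so the block changed none of these counts. Equal numbers did not pair the libraries, since the correlation of same-numbered deviations ran from -0.0206 to 0.0618 and 3 of the 9 libraries correlated best with their own number. For H/R against Sham without the 4 libraries of high Gm23935, 0 NF-kB and 0 pathway genes were called, with a single H/R library assumed to vary like the others. With no fold threshold 16 pathway genes passed after H/R, against 10. After H/R 594 genes were called over all genes tested, but 1001 by limma voom, 395 without a filter on low values and 372 at a mean of at least 5 FPKM, while the comparison of EGR1OV with Sham had 2291 calls and 1315 at a mean of at least 5 FPKM. EGR1OV and H/R differed in 2641 genes, and in 1520 at that mean. With Nfkbia, Nfkbib and Nfkbie alone, inhibitors per subunit differed by 0.278 for EGR1OV against Sham, 0.0147 in H/R against Sham and 0.263 between EGR1OV and H/R. Relb in the sum of Rela, Rel and Relb differed by 1.48, 1.96 and -0.476 percentage points in the same order. These definitions sum other genes. Limma voom on recovered reads, the Gm23935 covariate and the fit without 4 libraries were chosen after seeing the data. Depth limits Rel most.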
